A study of Mus musculus with 4 samples.

Results

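The interleukin 1 family genes described here are the ligands Il1a, Il1b, Il18 and Il36g, the antagonist Il1rn, the receptor chains Il1r1 and Il1rap, and the decoys Il1r2 and Il18bp. They were taken by gene symbol, and all 9 were found once in the count tables of 55414 genes. The cells came from livers of 2-month-old mice that carried genotype A/A or genotype S/S (symbols the labels leave unexplained) and were either left at baseline or taken 3 h after 500 ng of TNF, an inflammatory cytokine, given intraperitoneally. A single library of pooled cells from 2 mice stood for every combination, and sets of 4 values below run through baseline (A/A, then S/S) before TNF (A/A, then S/S). The cells were enriched for non-parenchymal cells and, by a flow sort, for macrophages. There were no replicates, so no difference was tested, and bracketed ranges are 95% intervals for counting error only, with no part for differences between mice or preparations.

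Interleukin 1 alpha and interleukin 1 beta bind the receptor chain encoded by Il1r1, which then recruits the shared chain encoded by Il1rap and signals through MYD88 and the IRAK kinases to NF-kB. The receptor antagonist encoded by Il1rn occupies the same receptor without recruiting the second chain, and the product of Il1r2 binds interleukin 1 but has no signalling domain. Interleukin 18 and interleukin 36 gamma use related receptors, and the protein encoded by Il18bp binds free interleukin 18. In the liver, Kupffer cells (the resident macrophages), infiltrating neutrophils and monocytes are known sources of interleukin 1 beta, and hepatocytes make the antagonist in the acute phase response.

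Of the genes, 4 lie on mouse chromosome 2 in the GRCm38 annotation: Il36g at 24186476 to 24193568, Il1rn at 24336853 to 24351494, Il1a at 129299610 to 129309972 and Il1b at 129364570 to 129371139. The receptor genes Il1r2 (40074079 to 40125231) and Il1r1 (40225080 to 40317257) are neighbours on chromosome 1. The authors counted on another build (mm39), so these positions were not used for any value. The 250 bases before the RefSeq starts (GRCm38.p6) are shown for the ligand pair and for the antagonist, because the counts of these genes moved differently within the same gated cells. TATAAA, searched on both strands, was present in the windows of Il1a, Il1b and Il18 and in 12.4% of 32851 such windows. An NF-kB-type pattern, GGG and CC separated by any 5 bases, also searched on both strands, was present in windows of Il1rn, Il1r1 and Il1rap, and in 45.8% of all windows. Of the 9 genes, 8 had a window. Matches are in capitals, and all sequences read toward the gene.
Il1a (chr2:129309973-129310222, minus strand): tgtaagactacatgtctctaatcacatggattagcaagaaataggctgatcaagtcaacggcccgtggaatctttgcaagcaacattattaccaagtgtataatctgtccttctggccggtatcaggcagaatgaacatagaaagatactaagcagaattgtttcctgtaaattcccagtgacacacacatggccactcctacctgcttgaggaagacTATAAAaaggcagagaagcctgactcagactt
Il1b (chr2:129371140-129371389, minus strand): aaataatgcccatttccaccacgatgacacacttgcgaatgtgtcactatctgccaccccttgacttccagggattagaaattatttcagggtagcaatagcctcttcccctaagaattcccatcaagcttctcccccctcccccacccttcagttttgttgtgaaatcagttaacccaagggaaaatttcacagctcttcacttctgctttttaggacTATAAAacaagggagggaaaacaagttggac
Il1rn (chr2:24336610-24336859, plus strand): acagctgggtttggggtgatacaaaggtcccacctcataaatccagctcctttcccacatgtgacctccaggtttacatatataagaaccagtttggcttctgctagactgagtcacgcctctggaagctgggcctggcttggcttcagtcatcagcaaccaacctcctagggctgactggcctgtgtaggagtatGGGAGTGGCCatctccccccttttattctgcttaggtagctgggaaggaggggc
TATAAA began 32 bases before the start of Il1a and 31 before that of Il1b, on the gene's own strand. The match in this Il1rn window began 54 bases before the start, and another window of Il1rn, at 24345121 to 24345370, held one 51 bases before its start. A match describes these letters and says nothing of whether a factor was bound.

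A barcode was kept if it had 300 or more genes and no more than 20% of its UMIs (unique transcript molecules) from mitochondria; this left 2830, 4366, 6452 and 5528 of them, with 20514857, 29710749, 53463285 and 53969689 UMIs. Each was gated from marker genes, without the 9 genes, and 20.6, 27.6, 23.5 and 30.3% of barcodes fitted no gate. The neutrophil gate held 125, 152, 1535 and 1184 barcodes, the monocyte gate 51, 218, 265 and 512, the macrophage gate 394, 409, 470 and 317, and the dendritic gate 80, 88, 117 and 183. The endothelial gate held 305, 34, 1198 and 584 barcodes, so no ratio was formed with the S/S baseline library there, and the hepatocyte gate held 328, 219, 189 and 245. Every marker of the neutrophil, macrophage, endothelial and hepatocyte lists was higher inside its gate than among the other kept barcodes in each library, as were at least 13 of the 14 monocyte markers. Of the 10 markers of each dendritic list, 8 to 10 were higher inside the dendritic gate. The gates were set on these same markers, so such counts largely follow from the gating and do not check it. The libraries shared 4 to 12 cell barcodes per pair. Levels below are a gene's UMIs divided by all UMIs of the gate and put on the usual CPM scale, and log2 ratios were formed after adding 1 CPM.

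Over all kept barcodes, 5 of the 9 genes were over 2-fold higher after TNF in A/A (Il1a, Il1b, Il1rn, Il1r2 and Il36g), and 7 in S/S (these with Il1r1 and Il18bp). Among all genes that reached 20 UMIs over both libraries, 7.25% were over 2-fold higher in A/A and 7.57% in S/S. Il1rn had the largest ratios among the 9, 26.7-fold for A/A (14.1 to 402 CPM) and 31.7-fold for S/S (12.7 to 433 CPM). The share of kept barcodes in the neutrophil gate was 4.42 and 3.48% at baseline and 23.8 and 21.4% after TNF, so these sums hold both more neutrophil barcodes and different levels per barcode. Between genotypes, none of the 9 was over 2-fold apart at baseline (6.87% of all genes were). After TNF, Il1r1 alone was, 2.21-fold higher in S/S (5.67 against 13.7 CPM), where 4.68% of all genes were over 2-fold apart. That gene was within 2-fold when each barcode was thinned to 1000 UMIs or when 5 CPM was added in place of 1.

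The neutrophil gate held most of the UMIs of Il1b (68.0, 70.1, 82.6 and 67.9%), Il1r2 (83.0, 80.2, 92.1 and 85.0%) and Il36g (87.5, 91.7, 92.1 and 91.2%). For Il1rn its share was 42.2, 53.8, 67.9 and 46.1%. Il18bp lay mostly in the macrophage gate at baseline (67.5 and 49.6%), while after TNF the neutrophil gate held 39.9 and 31.9% and the macrophage gate 24.2 and 26.9%. Il1r1 was held mainly by the endothelial gate at A/A baseline (57.8%) and after TNF (55.1 and 68.1%), while at S/S baseline that gate held 19.9%, gates outside the 6 held 47.7% and ungated barcodes 30.5%. Ungated barcodes held 2.22 to 41.5% of a gene's UMIs.

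**Figure D1:**
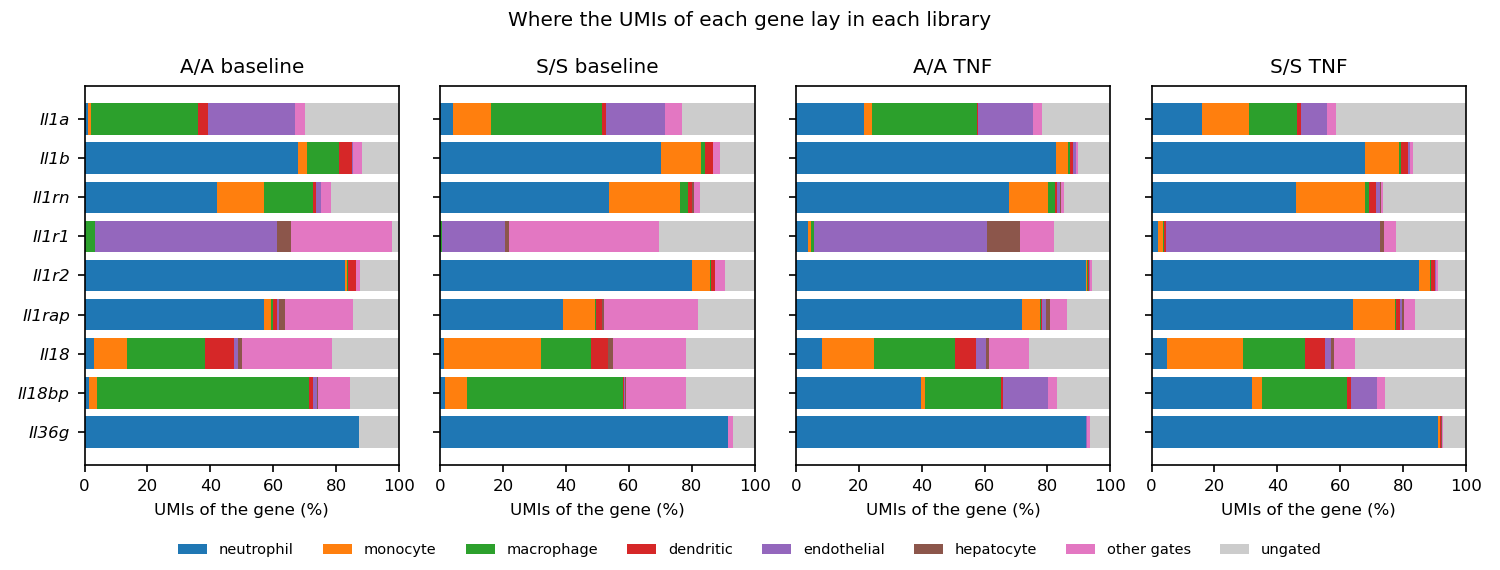
Percentage of each gene's UMIs (x axis) that lay in each gate, for the 9 genes (rows) in the 4 libraries (panels); other gates are the B, plasma, T, NK, plasmacytoid dendritic, erythroid, stellate and basophil gates. Il1b, Il1r2 and Il36g lay mostly in the neutrophil gate in every library, and the neutrophil share of Il18bp was 1.27 and 1.47% at baseline and 39.9 and 31.9% after TNF.

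Il1b encodes interleukin 1 beta, which is made as an inactive precursor and cut by caspase 1. In the neutrophil gate its level was 5428, 4246, 7400 and 7215 CPM, with a UMI in 98.4, 90.8, 96.7 and 97.1% of barcodes. TNF against baseline gave log2 ratios of 0.45 [0.40 to 0.50] for A/A and 0.76 [0.71 to 0.82] for S/S, both under 2-fold. With the median of gene ratios as the scale they were 0.82 and 1.51, the latter past 2-fold. The neutrophil gate was already high in this gene at baseline, and the genotypes were within 2-fold of each other in both states. At S/S baseline, 11 neutrophil-gated barcodes with a UMI of Camp, a granule protein gene of immature neutrophils, had 73.0 CPM of Il1b against 5237 CPM in the other 141. After TNF the barcodes with a Camp UMI had 3511 (A/A) and 2447 CPM (S/S), against 8023 and 7968 CPM in those without.

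Monocyte-gated barcodes had 187, 183, 561 and 783 CPM of Il1b. The 5 richest barcodes held 74.5% of these UMIs at A/A baseline and 10.4% at S/S TNF. TNF against baseline was 2.99-fold in A/A (log2 1.58 [1.34 to 1.84]) and 4.26-fold in S/S (2.09 [1.97 to 2.22]). Monocyte markers also differed between the libraries in this gate. Ly6c2 was at 307, 756, 980 and 632 CPM, and Ccr2 at 848, 1423, 207 and 330 CPM. Ace was at 180, 43.8, 11.0 and 31.8 CPM, and Treml4 at 136, 56.5, 252 and 213 CPM. The part of this makeup in the monocyte ratios here and below was not tested. Thinned to 1000 UMIs, 9.80, 8.37, 39.6 and 38.6% of monocyte-gated barcodes had an Il1b UMI (unthinned 49.0, 44.0, 85.7 and 85.2%). In B cell-gated barcodes, which are not known as a source, the thinned shares were 1.21, 0.668, 3.26 and 4.46% (unthinned 6.25, 3.30, 26.4 and 26.7%). Median depth was 14220, 14638.5, 20518 and 19252 UMIs in the monocyte gate and 8206, 5783, 8154.5 and 7560 in the B cell gate.

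The macrophage gate showed the widest gap between genotypes for any of the 9 genes among the ratios formed within gates. Il1b was at 504 CPM [462 to 550] at A/A baseline, 56.4 [40.6 to 76.2] at S/S baseline, 458 [424 to 495] at A/A TNF and 445 [412 to 481] at S/S TNF. The S/S baseline library stood low and the other 3 lay close together. S/S was therefore 8.81-fold lower than A/A at baseline (log2 -3.14 [-3.62 to -2.69]), while after TNF the ratio was -0.04 [-0.20 to 0.12]. TNF against baseline was -0.14 [-0.31 to 0.03] for A/A and 2.96 [2.51 to 3.44] for S/S on the log2 scale.

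A UMI of Il1b was present in 49.0, 7.58, 48.5 and 43.5% of macrophage-gated barcodes. After thinning, which left out 38, 104, 72 and 37 barcodes, the shares were 33.7% [28.8 to 38.9], 5.90% [3.53 to 9.17], 29.1% [24.7 to 33.9] and 27.5% [22.4 to 33.1]. Median depth was 2185, 1460, 2329.5 and 2448 UMIs. At A/A baseline the 5 richest of 394 barcodes held 12.1% of the UMIs, and 29.7% of barcodes had at least 2, against 1.71% at S/S baseline. The difference was thus spread over many barcodes.

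**Figure D2:**
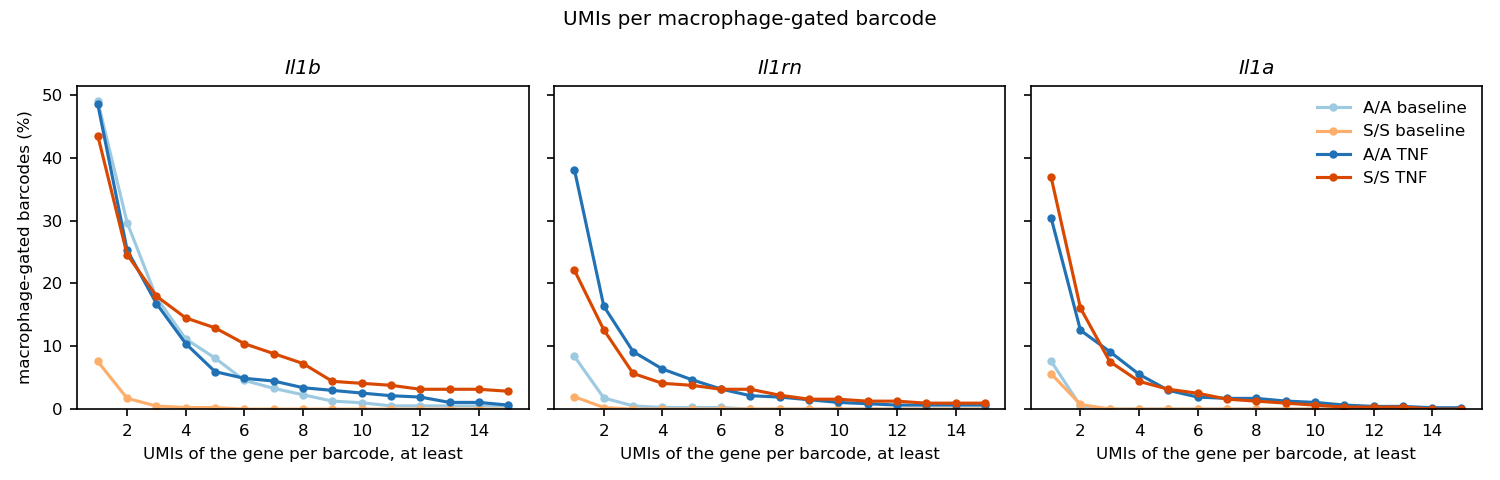
Percentage of macrophage-gated barcodes (y axis) with at least the given number of UMIs of Il1b, Il1rn or Il1a (x axis) in the 4 libraries (colours). For Il1b the A/A baseline curve runs with both TNF curves (49.0, 48.5 and 43.5% with at least 1 UMI), and S/S baseline is at 7.58%; for Il1rn and Il1a both baseline curves are low.

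Macrophage markers also differed between these libraries. The Kupffer cell lectin gene Clec4f was at 2095, 719, 1331 and 416 CPM in the gate, and the scavenger receptor gene Marco at 473, 1947, 3735 and 1425 CPM. Among gated barcodes with a UMI of Timd4, a phosphatidylserine receptor of resident macrophages, Il1b was at 532 CPM (184 barcodes) at A/A baseline and 60.1 CPM (66 barcodes) at S/S baseline; among those without, it was at 473 and 55.4 CPM. The gap was as wide in either split. Of 16 neutrophil markers, 14, 14, 15 and 15 were seen in the macrophage gate, with summed levels of 148, 293, 1142 and 695 CPM, and Ly6g at 0 in all 4 libraries. Scaled by S100a9 to the neutrophil gate, carried neutrophil RNA would amount to 1.7, 17.0, 8.5 and 3.8% of the macrophage Il1b level. Without barcodes that held at least 2 of 6 neutrophil-restricted markers, the baseline ratio was -3.14 as before.

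In the dendritic gate Il1b was at 219, 121, 301 and 424 CPM. Its 5 richest barcodes held 85.0 and 71.8% of the UMIs at baseline and 28.4 and 38.1% after TNF, so the baseline levels rest on few barcodes. By the list that gated them, type 1 dendritic barcodes had 9.05, 33.7, 209 and 521 CPM and type 2 had 305, 185, 386 and 555 CPM. Migratory ones, with 14, 7, 30 and 62 barcodes, had 431, 209, 392 and 195 CPM, so they were not higher after TNF in either genotype. The type 2 values at baseline came from 28 and 36 barcodes. Endothelial-gated barcodes had 98.0 and 104 CPM after TNF, of which carried neutrophil RNA would give 27.7 and 16.3%, and hepatocyte-gated ones 41.2 and 57.0 CPM, of which it would give 78.8 and 43.3%.

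**Figure D3:**
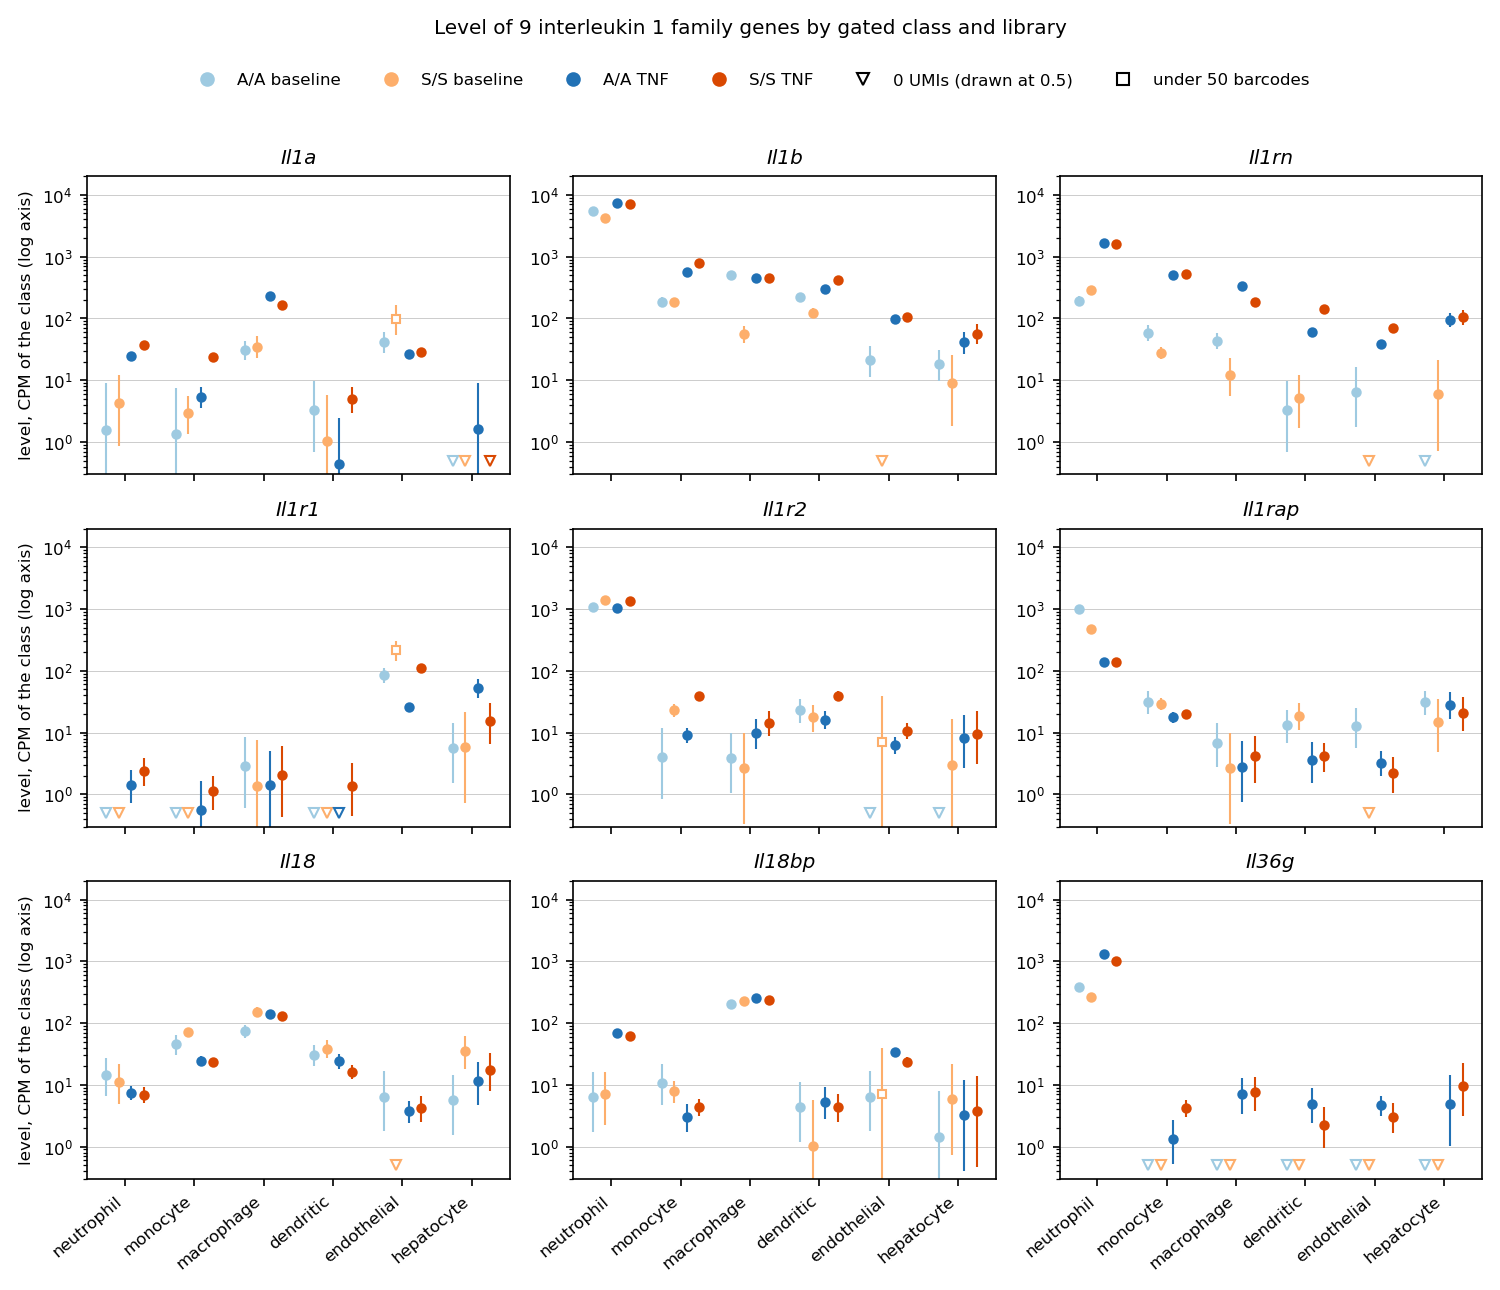
Level of each of the 9 genes (panels) in CPM on a log axis, for 6 gates (x axis) and 4 libraries (colours), with 95% intervals for counting error; triangles mark 0 UMIs and open squares gates under 50 barcodes. In the Il1b panel the S/S baseline point of the macrophage gate (56.4 CPM) lies below the other 3 (445 to 504 CPM), and in the Il1rn panel both TNF points lie above both baseline points in each of the 6 gates.

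Il1a encodes interleukin 1 alpha, which is active as its precursor and is often released by dying cells. In the macrophage gate it was at 31.1 [21.3 to 43.9], 34.9 [22.8 to 51.1], 233 [208 to 259] and 165 CPM [145 to 187]. Both TNF libraries lay above both baseline libraries. The level after TNF was 7.29-fold higher for A/A (log2 2.87 [2.35 to 3.42]) and 4.63-fold in S/S (2.21 [1.64 to 2.83]). So in A/A macrophage-gated barcodes Il1a was higher after TNF while Il1b was not, and in S/S both were higher. After TNF, Il1a was seen in 43.0% (A/A) and 50.7% (S/S) of macrophage-gated barcodes with an Il1b UMI, and in 18.6 and 26.3% of those without; depth per barcode was not held fixed in these shares.

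Endothelial-gated barcodes had 41.9 [27.4 to 61.4], 99.3 (14 UMIs in 34 barcodes), 26.9 [23.1 to 31.3] and 28.5 CPM [23.8 to 33.8] of Il1a. At A/A baseline this gate and the macrophage gate did not differ beyond their intervals, whereas after TNF the macrophage gate was the highest of the 6 in both genotypes. Neutrophil-gated barcodes had 1, 3, 214 and 253 UMIs of the gene, or 1.59, 4.20, 24.8 and 37.4 CPM, with log2 ratios after TNF of 3.32 [1.37 to 4.64] (A/A) and 2.88 [1.51 to 4.37] (S/S). Monocyte-gated barcodes had 1.36, 2.94, 5.29 and 23.7 CPM, with S/S 3.92-fold above A/A after TNF (log2 1.97 [1.47 to 2.48]), with 37.2% of the S/S UMIs in 5 barcodes. The 14 macrophage markers summed to 171 (A/A) and 668 CPM (S/S) in the monocyte gate after TNF, and their part in this difference was not tested. Hepatocyte-gated barcodes had 0, 0, 1 and 0 UMIs.

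Il18 encodes interleukin 18, which is stored as a precursor in macrophages. Its level in the macrophage gate was 73.8 [58.2 to 92.4], 150 [124 to 181], 140 [121 to 160] and 131 CPM [114 to 151], the A/A baseline library being the low one. S/S was 2.02-fold higher than A/A at baseline (log2 1.02 [0.59 to 1.45]), and this was 0.59 with thinned barcodes. In the monocyte gate Il18 was lower after TNF, from 45.0 to 24.4 CPM for A/A (log2 -0.86 [-1.41 to -0.28]) and from 71.2 to 23.7 CPM for S/S (-1.55 [-1.82 to -1.28]). Genes with 10 to 100 kb of intron, as Il18 has (25983 bases), had monocyte medians of -0.22 (A/A) and -0.32 (S/S). For genes under 1 kb these were 0.36 and 0.04. Software version went with TNF, so the 2 cannot be told apart here. The dendritic gate had 30.6, 38.4, 24.1 and 16.3 CPM of Il18. B cell-gated barcodes had 10.7, 15.9, 9.18 and 17.8 CPM, so the neutrophil levels (14.3, 11.2, 7.42 and 6.95 CPM) were no higher than in that gate beyond counting error. This gene overlaps Bco2 and Tex12 on the other strand.

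Il36g encodes interleukin 36 gamma, a ligand known from epithelia. Here it was at 377 [331 to 428], 262 [226 to 302], 1306 [1282 to 1330] and 1005 CPM [981 to 1029] in the neutrophil gate. Both TNF libraries lay above both baseline libraries. The gain after TNF was 3.45-fold in A/A (log2 1.79 [1.60 to 1.98]) and 3.83-fold in S/S (1.94 [1.73 to 2.15]), and S/S was lower than A/A after TNF by less than 2-fold (-0.38 [-0.42 to -0.33]). No UMI was seen at baseline in the monocyte, macrophage, dendritic, endothelial and hepatocyte gates. After TNF these 5 gates had 1.32 to 9.50 CPM, and carried neutrophil RNA, scaled by S100a9, would give 40.8 to 134% of it (A/A), or 27.1 to 77.2% (S/S). The source of the remainder was not tested.

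Il1rn encodes the interleukin 1 receptor antagonist, in secreted and intracellular forms that gene-level counts do not separate. Its level was higher after TNF in every ratio formed within the 6 gates. In the neutrophil gate it was at 194 [161 to 232], 284 [247 to 326], 1695 [1667 to 1722] and 1593 CPM [1564 to 1624]. After TNF it was 8.69-fold higher in A/A (log2 3.12 [2.86 to 3.39]) and 5.59-fold in S/S (2.48 [2.28 to 2.69]). Thinned, 13.7, 15.2, 70.4 and 69.8% of neutrophil-gated barcodes had a UMI (unthinned 43.2, 41.4, 93.5 and 94.1%). Barcodes with a Camp UMI had 781 (A/A) and 646 CPM (S/S) after TNF, against 1841 and 1743 CPM in those without.

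In the monocyte gate Il1rn was at 58.6, 27.8, 497 and 525 CPM, 8.35-fold higher after TNF in A/A (log2 3.06 [2.63 to 3.52]) and 18.3-fold in S/S (4.19 [3.89 to 4.51]). At A/A baseline, 86.0% of its 43 UMIs lay in 5 barcodes. In the macrophage gate it was at 43.7, 12.1, 339 and 183 CPM, 7.60-fold higher in A/A (2.93 [2.49 to 3.39]) and 14.1-fold in S/S (3.81 [2.92 to 4.83]). S/S macrophage-gated barcodes had less than A/A at baseline (log2 -1.77 [-2.87 to -0.78], 9 against 45 UMIs) and after TNF (-0.89 [-1.11 to -0.67]). After TNF the 5 richest barcodes held 28.2% (A/A) and 47.6% (S/S) of the UMIs in this gate. In A/A TNF, 10 barcodes with a Ly6c2 UMI had 1134 CPM, against 308 CPM in the others. In S/S TNF, 9 such barcodes had 159 CPM, against 184 CPM. The difference after TNF was -1.30 with the stricter gate and -1.25 without barcodes holding neutrophil markers. In the dendritic gate the level was 3.28, 5.19, 59.3 and 144 CPM (log2 3.82 [2.48 to 5.19] for A/A and 4.55 [3.46 to 5.77] for S/S), and by list it was 109 (A/A) and 235 CPM (S/S) in type 2 barcodes after TNF, 116 and 272 in migratory ones, and 3.68 and 13.7 in type 1 ones.

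Hepatocyte-gated barcodes had 0, 2, 58 and 55 UMIs of Il1rn, that is 0, 5.93, 95.6 and 104 CPM. In A/A this was at least 22.7-fold higher after TNF, set against a floor of 3 UMIs. In S/S it was 15.2-fold higher (log2 3.93 [2.16 to 5.98]). At baseline 0 of 328 barcodes in A/A and 0.913% in S/S had a UMI, against 20.6 and 17.1% after TNF (thinned 0, 0.680, 8.50 and 11.1%). Carried neutrophil RNA would amount to 7.8 and 5.2% of the TNF levels. The B cell gate had 6.28 and 28.7 CPM of Il1rn after TNF, of which this estimate would give 60.5 and 6.8%. The T cell gate had 10.3 and 19.1 CPM, with 30.4 and 12.0%. The neutrophil markers seen in the hepatocyte gate summed to 2022, 4376, 6772 and 5055 CPM, with Ly6g and Trem1 at 0 in all 4 libraries. The macrophage markers in the hepatocyte gate summed to 121, 101, 46.2 and 77.9 CPM.

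Set against Il1b within the same gate, Il1rn gained after TNF. UMIs of Il1rn per UMI of Il1b in the neutrophil gate were 0.0358 [0.0296 to 0.0429], 0.0670, 0.229 [0.225 to 0.233] and 0.221. In the macrophage gate the ratio was 0.0867, 0.214, 0.740 and 0.411, and in the monocyte gate 0.314, 0.152, 0.886 and 0.671. The ratio after TNF was higher than at baseline in each of these 3 gates and both genotypes, although in S/S macrophages the baseline interval [0.0917 to 0.447], from 9 UMIs of Il1rn, overlapped that after TNF [0.355 to 0.474]. The 2 genes are captured with different efficiency, so the ratio is compared between libraries and not read as a ratio of molecules.

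**Figure D4:**
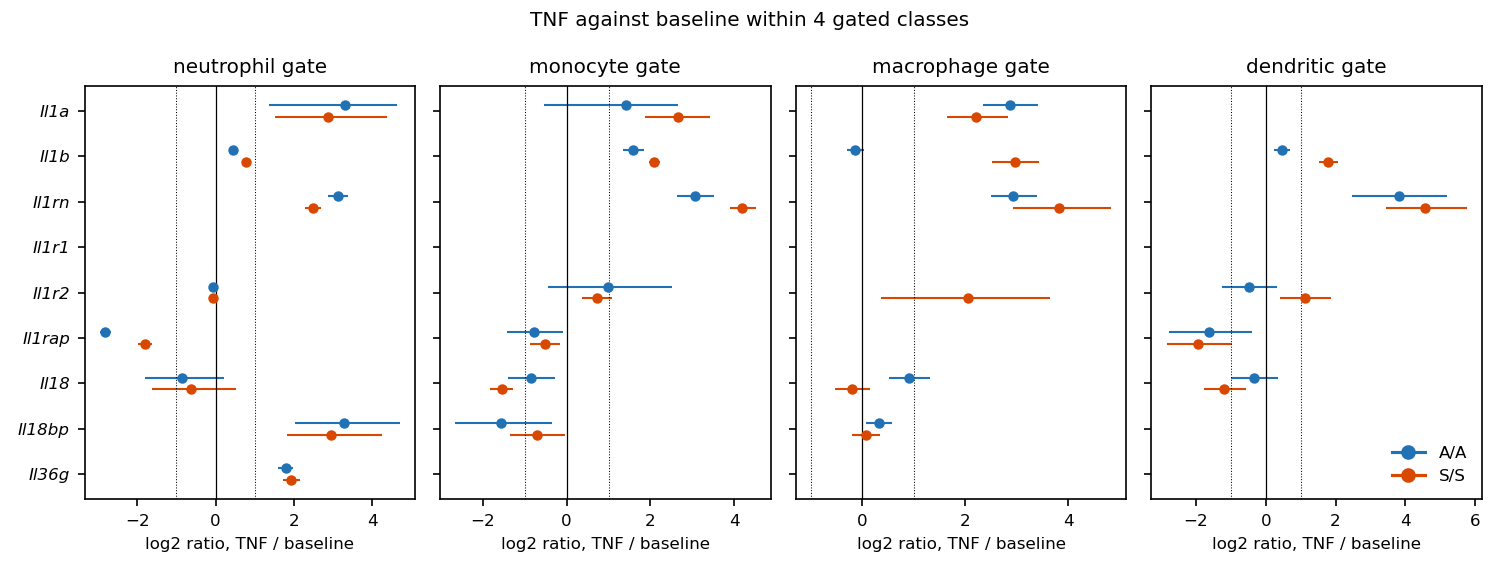
Log2 ratio of TNF to baseline (x axis) for the genes that reached 20 UMIs over both libraries and had some in each (rows), in 4 gates (panels), for A/A (blue) and S/S (orange), with 95% intervals for counting error; dotted lines mark 2-fold. Il1rn lies right of 2-fold in all 4 gates, Il1b in the macrophage gate is at -0.14 (A/A) and 2.96 (S/S), and Il1rap lies left of 2-fold in the neutrophil and dendritic gates.

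Il1r1 encodes the chain that binds interleukin 1 and signals. The endothelial gate had 83.8 CPM [62.6 to 110] at A/A baseline, 25.9 [22.1 to 30.1] at A/A TNF and 111 [101 to 121] at S/S TNF; at S/S baseline, 30 UMIs in 34 barcodes gave 213 CPM [144 to 304]. The A/A TNF library was the low one. TNF against baseline in A/A was 3.16-fold lower (log2 -1.66 [-2.11 to -1.19]; -0.83 with thinned barcodes), with 67.3% of the baseline UMIs in 5 barcodes. After TNF, S/S was 4.16-fold higher than A/A (2.06 [1.81 to 2.31]), and this was 1.76 with thinned barcodes. An Il1r1 UMI was present in 10.3% (A/A) and 31.7% (S/S) of endothelial-gated barcodes after TNF, and in 2.15 and 6.47% after thinning.

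Vwf, which encodes von Willebrand factor and marks vascular rather than sinusoidal endothelium, moved with Il1r1 in this gate, at 150, 426, 39.6 and 142 CPM. Among endothelial-gated barcodes with no Vwf UMI, Il1r1 was at 23.0 CPM [19.3 to 27.1] for A/A TNF and 108 [96.9 to 120] for S/S TNF. Among those with one, it was at 69.3 (34 barcodes) and 116 CPM (116 barcodes). At baseline the barcodes with a Vwf UMI, 6 in each genotype, had 264 (A/A) and 295 CPM (S/S), against 69.6 and 23.5 CPM in the others. A barcode without a Vwf UMI at these depths may still come from a cell that expresses the gene. Median depth also differed, at 2695 and 5307 UMIs, and its part in the difference was not tested beyond the thinning. The sinusoidal markers Stab2 (435 and 384 CPM) and Clec4g (910 and 919 CPM) were close between these 2 libraries. All 14 macrophage markers were seen in this gate after TNF, summing to 297 (A/A) and 575 CPM (S/S).

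Hepatocyte-gated barcodes had 5.63, 5.93, 52.8 and 15.2 CPM of Il1r1 (4, 2, 32 and 8 UMIs). A/A was 8.11-fold higher after TNF (log2 3.02 [1.66 to 4.51]), with 53.1% of the TNF UMIs in 5 barcodes, and after TNF S/S was below A/A (-1.73 [-2.95 to -0.63]). The endothelial markers in this gate summed to 81.6, 32.6, 94.0 and 68.4 CPM. Neutrophil, monocyte, macrophage and dendritic gates had 0 to 2.91 CPM of this gene, against 0.369 to 1.37 CPM in the B cell gate.

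Il1rap encodes the second, signalling chain shared by several receptors of the family. In the neutrophil gate it was at 990 [914 to 1071], 481 [431 to 534], 139 [131 to 147] and 137 CPM [128 to 146]. Both TNF libraries lay below both baseline libraries. After TNF it was 7.09-fold lower in A/A (log2 -2.83 [-2.97 to -2.68]) and 3.49-fold lower in S/S (-1.80 [-1.98 to -1.62]). At baseline S/S was 2.06-fold lower than A/A (-1.04 [-1.24 to -0.85]). Among baseline barcodes without a Camp UMI, the levels were 995 (A/A) and 576 CPM (S/S), within 2-fold of each other. The 11 S/S baseline barcodes with a Camp UMI had 80.3 CPM. Il1rap was also over 2-fold lower after TNF in the dendritic gate (A/A -1.63, S/S -1.94), in the endothelial gate of A/A (-1.71), and in the B cell gate (-1.59 and -1.21). Il1rap carries 137054 intron bases, the most of the 9 genes. For genes whose introns exceed 100 kb, the median log2 ratio was -1.91 (A/A) and -2.20 (S/S) in the neutrophil gate, against 0.32 and -0.04 for genes under 1 kb. Software version went with TNF and whether introns were counted is not given in the sources used here, so the software and TNF cannot be told apart for Il1rap. For Il1r1, with 85815 intron bases, the median of endothelial genes in A/A was 0.03 at 10 to 100 kb and -1.08 over 100 kb. The software and TNF cannot be told apart for Il1r1 either.

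Il1r2, the decoy receptor gene, was high in the neutrophil gate in every library, at 1079 [1000 to 1164], 1421 [1335 to 1511], 1033 [1012 to 1055] and 1352 CPM [1325 to 1380]. TNF against baseline was -0.06 [-0.18 to 0.05] for A/A and -0.07 [-0.16 to 0.02] for S/S on the log2 scale. With the median of gene ratios as the scale these were 0.31 and 0.67, still under 2-fold. Genes with 10 to 100 kb of intron, as Il1r2 has (49245 bases), had medians of -0.47 and -0.84 in this gate. Over all kept barcodes Il1r2 was 4.45-fold higher after TNF in A/A and 4.60-fold in S/S, beside the larger share of neutrophil-gated barcodes given above. Both S/S libraries lay above both A/A libraries, by 0.40 [0.25 to 0.54] at baseline and 0.39 [0.35 to 0.43] after TNF, under 2-fold. At S/S baseline, barcodes with a Camp UMI had 80.3 CPM against 1739 in the others.

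Monocyte-gated barcodes had 4.09, 23.2, 9.07 and 38.7 CPM of Il1r2, with S/S above A/A at baseline (log2 2.25 [0.84 to 3.75], 71 against 3 UMIs) and after TNF (3.94-fold, log2 1.98 [1.58 to 2.40]). At S/S baseline, 73.2% of those UMIs lay in 5 barcodes. Carried neutrophil RNA, scaled by S100a9, would give 12.3, 28.2, 15.4 and 3.96% of these monocyte levels. Dendritic-gated barcodes had 23.0, 17.7, 16.0 and 39.3 CPM, and the type 2 list among them 44.3, 35.0, 34.8 and 128 CPM. Macrophage, endothelial and hepatocyte gates had 0 to 14.4 CPM, of which carried neutrophil RNA would give 14.4 to 127% where it could be computed.

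Il18bp encodes the secreted protein that binds interleukin 18. In the macrophage gate its level was 206 [179 to 236], 227 [194 to 264], 258 [232 to 286] and 239 CPM [215 to 265], and the 4 ratios between libraries ran from -0.11 to 0.32 on the log2 scale. In the neutrophil gate it was at 6.37, 7.01, 70.3 and 61.2 CPM (4, 5, 606 and 414 UMIs). That was 9.68-fold higher after TNF in A/A (log2 3.27 [2.04 to 4.71]) and 7.77-fold in S/S (2.96 [1.83 to 4.26]). A UMI was present in 1.60, 2.63, 25.1 and 24.0% of neutrophil-gated barcodes (thinned 0.806, 0, 7.38 and 5.97%), against 2.16, 1.98, 1.85 and 3.73% of B cell-gated ones (thinned 0, 0.111, 0 and 0%). The endothelial gate had 6.45 CPM at A/A baseline, 1 UMI at S/S baseline and 33.4 and 23.4 CPM after TNF, 4.62-fold higher after TNF in A/A (2.21 [0.96 to 3.66]). In the monocyte gate the direction was the other one, 10.9 to 3.02 CPM for A/A (-1.57 [-2.66 to -0.34], 8 and 16 UMIs). For S/S it went from 7.84 to 4.40 CPM, under 2-fold (-0.71 [-1.36 to -0.04], 24 and 43 UMIs). Il18bp has only 780 intron bases and overlaps Numa1 on the other strand.

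Counted over the 9 genes, the neutrophil gate had 4 of 8 compared over 2-fold higher after TNF in A/A (Il1a, Il1rn, Il18bp and Il36g) and the same 4 in S/S, against 19.1 and 12.2% of all genes; Il1rap alone was lower, against 29.0 and 38.6%. Of the 4 higher genes, Il1a had 1 (A/A) and 3 UMIs (S/S) at baseline, and Il18bp had 4 and 5. Both met the minimum of UMIs only through the TNF libraries, so their place in this count depended on a high TNF level. In the neutrophil gate the median over all genes compared was -0.24 for A/A and -0.65 for S/S. With the median of gene ratios as the scale, the Il1rn ratios were 3.49 and 3.23. Between genotypes, 1 of 5 (Il1rap) was over 2-fold apart at baseline (14.9% of all genes) and 0 of 9 after TNF (4.45%). The neutrophil-gated barcodes differed in maturity markers between libraries, with Camp at 1.59, 5636, 308 and 1263 CPM and S100a9 at 20548, 49220, 73630 and 71032 CPM. The Camp split above only describes this, with 1 such barcode at A/A baseline. The part of maturity in the ratios was not tested.

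The macrophage gate had 2 of 5 genes over 2-fold higher after TNF in A/A (Il1a and Il1rn; 17.0% of all genes) and 4 of 6 in S/S (with Il1b and Il1r2; 25.1%). Il1r2 there rests on 2 and 21 UMIs (log2 2.06 [0.35 to 3.64]). At baseline 3 of 5 were apart between genotypes, Il1b and Il1rn lower and Il18 higher in S/S (24.2% of all genes), and 0 of 7 after TNF (12.4%). The monocyte gate had 3 of 7 higher in A/A (15.5%), of which Il1a had an interval that includes 0 (1.41 [-0.54 to 2.65]), and 4 of 8 in S/S (9.88%), the latter with Il36g against 0 UMIs (at least 4.28-fold, of which carried neutrophil RNA would give 27.1% of the level). One was lower in each, Il18bp in A/A (23.8%) and Il18 in S/S (23.8%). Between genotypes 2 of 6 were apart at baseline (14.3%) and 3 of 8 after TNF (5.08%), namely Il1a, Il1r2 and Il36g, all higher in S/S. For Il36g these were 7 and 41 UMIs, and carried neutrophil RNA would give 134% of the A/A level.

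The dendritic gate had 2 of 5 over 2-fold apart after TNF in A/A (26.8%) and 5 of 5 in S/S (34.2%); between genotypes it had 0 of 4 at baseline (14.2%) and Il1rn and Il1r2 of 6 after TNF (7.93%), both higher in S/S. The endothelial gate of A/A had 5 of 9 higher (21.8%) and 2 lower (18.2%). Of those 5, Il1r2 and Il36g stood against 0 UMIs, and their bounds (at least 1.31-fold, and below 1) do not reach 2-fold. After TNF, Il1r1 alone of 9 was apart between genotypes (8.17%). The hepatocyte gate had 3 of 4 apart after TNF in A/A (24.7%), 3 of 3 in S/S (21.7%), 1 of 1 between genotypes at baseline (28.1%) and 1 of 4 after TNF (14.7%). Intervals included 0 for Il18 in S/S (-1.02 [-2.36 to 0.30]) and for Il1rap at baseline (-1.01 [-2.60 to 0.36]).

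A list of 26 further genes of the pathway covered coreceptors and other ligands, the signalling adaptors and kinases, and the enzymes that mature the ligands. Over all kept barcodes, 22 were compared after TNF, with 6 higher and 2 lower in A/A and 7 higher and 3 lower in S/S. Of all genes, 7.25% were higher and 17.3% lower in A/A, and 7.57 and 23.4% in S/S. In the neutrophil gate 17 were compared, with 4 higher and 3 lower in A/A (19.1 and 29.0% of all genes) and 4 higher and 4 lower in S/S (12.2 and 38.6%). Casp4, an inflammatory caspase that senses lipopolysaccharide, went from 103 to 432 CPM (A/A) and from 74.3 to 321 CPM (S/S). Irak3, an inhibitory member of the IRAK family, went from 129 to 529 CPM and from 102 to 593 CPM. Il18r1, a chain of the interleukin 18 receptor, was lower in both genotypes (30.2 to 8.12 CPM and 26.6 to 6.80 CPM). Myd88, the adaptor of these receptors, went from 93.9 to 297 CPM in S/S.

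In the macrophage gate 15 of the 26 were compared after TNF, with 5 higher in A/A (17.0% of all genes), 8 higher in S/S (25.1%) and none lower (14.7 and 12.5%). Nlrp3, the sensor of the inflammasome that activates caspase 1, was at 34.0, 5.37, 245 and 174 CPM (35, 4, 350 and 254 UMIs). It was lowest at S/S baseline like Il1b, there on 4 UMIs, with TNF log2 ratios of 2.82 (A/A) and 4.78 (S/S). Irak2, a kinase of the pathway, was at 31.1, 9.39, 49.1 and 55.5 CPM. Irak3 went the other way at baseline, at 5.83 against 30.9 CPM, and was at 56.1 CPM after TNF in A/A. Here 3 UMIs equal 2.91 CPM at A/A baseline and 4.03 CPM at S/S baseline. The lowest of these baseline levels thus rest on few UMIs. Between genotypes at baseline 2 of 14 were higher and 6 lower in S/S (5.77 and 18.5% of all genes). Nfkbiz, an inducible NF-kB cofactor, was at 12.6, 26.8, 51.9 and 87.6 CPM.

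The monocyte gate had 2 of 17 pathway genes higher for A/A (15.5% of all genes) and 3 for S/S (9.88%), with Nlrp3 among both (62.7 to 189 CPM and 52.9 to 126 CPM). The endothelial gate of A/A had 7 of 17 higher and 1 lower (21.8 and 18.2% of all genes), with Casp4 from 29.0 to 219 CPM and Irak2 from 11.3 to 65.6 CPM. In the hepatocyte gate Irak3 went from 1.41 to 51.1 CPM and Myd88 from 7.03 to 57.7 CPM in A/A, beside the Il1rn change there. At A/A baseline 1 UMI equals 1.41 CPM in this gate and 3 UMIs equal 4.22 CPM, so these baseline levels rest on few UMIs. Myd88, with 0 UMIs at baseline, was at 38.0 CPM after TNF in S/S. Of 7 pathway genes compared there in A/A, 4 were higher and 2 lower (18.4 and 6.34% of all genes).

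Over the 24 pairs of gate and library with at least 30 barcodes, the genes with the most similar log2 levels were named for each of the 9. They were Nfkbid for Il1b (Pearson r 0.96), Clec4e for Il1rn (0.94), Retnlg for Il36g (0.96) and 9130230L23Rik for Il1r2 (0.95). For the others they were Masp1 for Il1r1 (0.95), Sfxn5 for Il1rap (0.91), Ctsh for Il18 (0.86), Hbegf for Il1a (0.84) and Marco for Il18bp (0.83). Pairs share libraries and depth, so these values are descriptions with no test.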

How the data were processed

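Single-cell 3' RNA libraries (10x Genomics) were made from mouse liver. The authors deposited filtered tables of counts (UMIs per gene and barcode), made with Cell Ranger 6.1.2 for the TNF libraries and 7.1.0 for the baseline libraries, per the file headers, on mm39, per the submitters' processing notes. Whether introns were counted is not given in the sources used here. Software version and TNF cannot be told apart.

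From these counts, a barcode was kept if it had 300 or more genes and no more than 20% mitochondrial UMIs. A barcode was gated when at least 4 markers of a list were seen and its leading list exceeded the next by 1.5 times; hepatocytes needed at least 8 markers and 3% of UMIs. No doublet caller was run; barcodes with mixed lists stayed ungated. UMIs were summed per gate and library. CPM were compared as log2 ratios after adding 1 CPM, for genes that reached 20 UMIs over both libraries and gates of at least 50 barcodes, and over 2-fold was counted. A gene with few UMIs at baseline could reach 20 through the TNF library alone. Intervals are exact 95% Poisson or binomial ones. Carried neutrophil RNA was estimated as the neutrophil level scaled by the S100a9 ratio between gates. With 1 library per group there was no test. All 9 genes are named, with up to 4 pathway genes per gate and comparison by size of the ratio, and the genes of most similar pattern with at least 500 UMIs. The members and lists were chosen with earlier results of these data known. Alternatives were a stricter gate, a stricter barcode filter (500 genes, 10% mitochondrial), 5 CPM added, no UMI minimum, median scaling, a reduced denominator and thinning. On simulated counts for the neutrophil TNF comparison in A/A (9018 genes), 200 of 200 genes changed 4-fold were recovered and 9.28% of unchanged genes passed 2-fold. For the macrophage comparison of genotypes after TNF (7625 genes) these were 196 of 200 and 1.52%. The changed genes were drawn from those expected to reach 20 UMIs in the smaller library alone, and the simulated counts held counting error only. Recovery of genes with fewer UMIs was not tested. Python 3.11.15, numpy 2.4.6, pandas 2.3.3, scipy 1.17.1 and matplotlib 3.10.9 were used. Gene models are GENCODE on GRCm38, and promoter windows are RefSeq's on GRCm38.p6.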

Additional observations from a re-analysis of the deposited data

Results flagged for a closer look

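Barcodes that fitted no gate (583, 1206, 1514 and 1676 in the 4 libraries) entered no comparison by gate, and several of the 9 genes were higher among them after TNF than at baseline of the same genotype. Il1b was at 545 CPM in A/A TNF against 113 at baseline, and at 653 CPM in S/S TNF against 59.3. Il1rn was at 217 CPM against 11.8 in A/A and at 331 CPM against 8.03 in S/S. Il36g was at 54.0 CPM against 6.48 in A/A and at 29.5 CPM against 1.73 in S/S. Il1a was at 34.8 CPM against 2.10 in S/S, and at 14.6 against 5.33 in A/A. Il1r2 was at 52.0 CPM against 14.7 in S/S, and at 38.5 against 19.4 in A/A. These barcodes can hold cells of several types, and their makeup was not tested.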

How the results depend on the processing

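None of the results changed direction past 2-fold under the alternatives run. Over all kept barcodes, thinning to 1000 UMIs gave 2 genes apart between genotypes at baseline in place of 0, and after TNF both thinning and 5 CPM in place of 1 CPM gave 0 in place of 1. Of member ratios within gates, 59 were past 2-fold, against 90 with no minimum of UMIs and 30 with thinned barcodes. For the pathway list these counts were 86, 142 and 46. Of the member ratios past 2-fold that each alternative gave, 38 of 40 stayed past it with the stricter gate, 56 of 58 with the stricter barcode filter, 48 of 59 with 5 CPM added, 57 of 59 with median scaling, 57 of 59 with the reduced denominator and 28 of 31 with thinning. Leaving out barcodes with neutrophil-restricted markers, chosen after seeing the data, kept 56 of 56.

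No paired analysis was possible because each group was 1 library, and leaving out a library was not run for the same reason. Depth limits the low genes most: Il1r1 outside the endothelial gate and Il36g outside the neutrophil gate rest on few UMIs. Differences between mice, pools and preparations are not covered by any interval.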
